A study of Mus musculus with 15 samples.

Results

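The genes described are 10 components and outputs of insulin, AKT and mTORC1 signalling: Insr, Irs1, Irs2, Pik3r1, Pik3r2, Akt1, Akt2, Foxo1, Depp1 and Ddit4. Binding of HSF1, a transcription factor that drives chaperone genes under protein stress, was profiled by ChIP-seq in the brown adipose tissue (BAT) of mice, and every peak that overlapped one of these genes or the 10 kb on either side of it was taken. The 10 genes are among 21887 protein-coding genes of GRCm38, and their windows held 49 of the 18176 regions made by merging the peaks of all libraries. The genes were chosen by the peaks called near them in these libraries, and their counts and folds are given as descriptions with no test.

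The 10 ChIP libraries form 5 groups of 2. They came from wild type (WT) mice at room temperature, WT mice after 40 min of cold (pair A), WT mice after 4 h of cold, TXNIP knockout mice after 40 min of cold, and WT mice after 40 min of cold (pair B, titled like pair A with an added suffix). Whether pairs A and B came from the same tissue samples is not said in the labels, so they may not be independent. TXNIP is an arrestin that binds thioredoxin and limits glucose uptake. The strain, age, sex, housing and kind of TXNIP knockout are not stated in the labels used here, nor whether the 2 libraries of a group came from separate animals. All groups share the tissue, the antibody and the crosslinking with 2 mM DSG for 25 min and 0.8% formaldehyde for 12 min. Peak lists hold no transcript levels, so neither the knockout nor the tissue label was checked.

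Insulin binds a receptor tyrosine kinase, INSR, which phosphorylates the adaptors IRS1 and IRS2. They recruit PI3-kinase through its regulatory subunits, and the lipid it makes activates AKT. AKT keeps FOXO1 out of the nucleus and, by inhibiting the TSC complex, turns on mTORC1, the kinase complex that promotes protein and lipid synthesis. DDIT4 (also called REDD1) is a stress-induced inhibitor of mTORC1, and DEPP1 is known as a FOXO target. In brown fat, insulin drives glucose uptake and lipid storage.

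The lists differ in length, which bears on every count below. They held 919 and 1269 peaks at room temperature, 2287 and 1670 in pair A, 123 and 351 at 4 h, 10399 and 10633 in the TXNIP knockout, and 12644 and 14583 in pair B. Each peak carries the authors' fold enrichment at its summit, a linear ratio over local background, used here only for description and for ranking inside one list. No read counts were in the lists, so depth is unknown and no interval can be given. A two-sided exact permutation test of 2 values against 2 has p = 0.33 as its floor, and none was run. Short lists below means those of room temperature, pair A and 4 h, and long lists those of the knockout and pair B. Regions are numbered along each gene's window in order of coordinate.

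Promoter sequences are shown for 3 members with a peak there, to set side by side a near match to a heat shock element, a shorter element and no match. Each is the 250 bases before the RefSeq start in GRCm38.p6, 5′ to 3′ on the gene's own strand. HSF1 is known to bind alternating GAA and TTC units, and the capitals mark matched bases of such units.
Pik3r2, chr8:70776713-70776962, minus strand: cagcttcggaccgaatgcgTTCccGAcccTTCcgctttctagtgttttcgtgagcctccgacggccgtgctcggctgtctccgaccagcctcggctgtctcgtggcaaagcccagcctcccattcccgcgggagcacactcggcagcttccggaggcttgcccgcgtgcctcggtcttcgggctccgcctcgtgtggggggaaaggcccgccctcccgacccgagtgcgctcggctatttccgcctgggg
Depp1, chr6:116650434-116650683, plus strand: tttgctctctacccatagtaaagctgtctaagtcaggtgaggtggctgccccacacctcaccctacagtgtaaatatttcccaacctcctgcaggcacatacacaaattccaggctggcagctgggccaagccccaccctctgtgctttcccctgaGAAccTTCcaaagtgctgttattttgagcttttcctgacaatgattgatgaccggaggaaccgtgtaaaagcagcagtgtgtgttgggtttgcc
Ddit4, chr10:59951771-59952020, minus strand: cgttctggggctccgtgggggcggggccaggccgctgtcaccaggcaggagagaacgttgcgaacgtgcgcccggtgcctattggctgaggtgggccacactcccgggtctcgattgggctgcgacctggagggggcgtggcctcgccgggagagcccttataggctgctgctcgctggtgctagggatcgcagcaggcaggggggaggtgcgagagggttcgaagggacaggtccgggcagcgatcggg
In Pik3r2, the capitals are 8 of the 9 fixed bases of a 3-unit element that begins 231 bp before the start. In Depp1, they are a 2-unit element, GAANNTTC, that begins 94 bp before the start. Ddit4 has no capitals, since neither was found.

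Insr, the receptor, held the region called most often. Insr region 4 (chr8:3239495-3241616) lay inside the gene, with its summit at 3240898, 38751 bp from the nearer end of the gene, and was called in all 10 libraries. Its fold was 6.20 and 7.03 at room temperature, 14.5 and 15.6 in pair A, 5.07 and 9.85 at 4 h, 56.3 and 60.2 in the TXNIP knockout, and 54.2 and 58.4 in pair B. The summits of the 10 libraries fell within 61 bp of each other. Being called in every library was true of 0.523% of all regions (95 of 18176) and of 1 of the 49 member regions.

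Insr region 4 ranked 568 of 919 and 588 of 1269 by fold at room temperature, 408 of 2287 and 286 of 1670 in pair A, and 102 of 123 and 109 of 351 at 4 h. It ranked 285 of 10399 and 225 of 10633 in the knockout, and 397 of 12644 and 391 of 14583 in pair B. Ranks from lists of unequal length show no change. Among only the 95 regions that all 10 libraries called, its rank lay between 73 and 89, so it was in the weaker part of that set in each library. The other 11 Insr regions were called only in the knockout and pair B, and regions 3, 5, 7 and 10 were called in all 4 of those libraries. Insr region 11, with its summit inside the gene and 78 bp from its end, was called in both pair B libraries (5.77 and 5.32). Knockout replicate 1 also called it (4.36).

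The adaptor genes were called only in the long lists. Irs1 region 4 (chr1:82285018-82287048) had its summit 5822 bp past the start of Irs1, inside the gene. Its fold was 9.96 and 12.8 in the TXNIP knockout, against 11.9 and 16.8 in pair B. The 2 groups overlapped. A weaker region, Irs1 region 5, had its summit 420 bp past the start, with folds of 3.73 and 3.75 in the knockout, against 4.38 and 4.63 in pair B, where both libraries were higher. Irs2 region 2 (chr8:10996484-10997249) had its summit 12100 bp past the start, and its fold was 8.51 and 8.69 in the knockout, against 8.32 and 8.04 in pair B. Both knockout libraries were higher by a small margin. Of all regions called in these 4 libraries, both knockout folds were above pair B at 10.6% and both below at 39.1%. Folds of different lists are set side by side here and below only as a description.

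The regulatory subunits of PI3-kinase had regions near their starts. Pik3r1 had a single region (chr13:101767813-101768921), whose summit in knockout replicate 1 lay 448 bp before the start. The summits of the 4 libraries that called this region spread over 411 bp. Its fold was 5.19 and 4.35 in the knockout, against 4.13 and 3.82 in pair B, so both knockout libraries were higher, and no short list called it. Pik3r2 region 2 (chr8:70776595-70777509) had its summit 233 bp before the start, at the near match to a heat shock element printed above. Its fold was 4.92 and 5.05 at room temperature, 16.8 and 20.3 in the TXNIP knockout, and 13.5 and 21.8 in pair B. It was called in both libraries at room temperature, and in neither library of pair A or of 4 h. At room temperature it ranked 781 of 919 and 934 of 1269 by fold, within the weaker part of both lists.

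The AKT kinase genes had few regions shared across groups. Akt1 region 2 (chr12:112658634-112659659), inside the gene, was called in 1 library of each of the 3 groups with short lists. Its fold was 11.7 in room temperature replicate 2, 4.59 in replicate 1 of pair A, and 21.8 in 4 h replicate 1, where it ranked 11 of 123. Its summits lay within 22 bp, but neither the other library of each of these groups nor any of the 4 long lists called it. Only 29 of the 18176 regions (0.16%) were missing from all 4 long lists. Akt1 region 1 lay 8924 bp from Akt1 and 69 bp from the end of Siva1, a neighbouring gene. Akt2 region 5 (chr7:27624720-27625447), 33605 bp past the start, had a fold of 10.6 and 7.90 in the knockout, against 7.37 and 5.66 in pair B. Both knockout libraries were higher there.

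Foxo1, the transcription factor that AKT restrains, had 1 region outside the long lists. Foxo1 region 3 (chr3:52273921-52275424) had its summit 6285 bp past the start, inside the gene. Its fold was 6.26 in room temperature replicate 2, 7.01 and 6.40 in pair A, 29.6 and 26.0 in the TXNIP knockout, and 25.0 and 24.7 in pair B. Room temperature replicate 1 and both libraries at 4 h did not call it. The 7 summits fell within 32 bp.

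Depp1, the FOXO target, had the only member regions called in both libraries of pair A and in neither library at room temperature. Depp1 region 2 (chr6:116647090-116648457) had its summit 2920 bp before the start, and its fold was 16.7 and 17.1 in pair A, 41.3 and 57.7 in the TXNIP knockout, and 56.5 and 65.8 in pair B. Depp1 region 1, 6256 bp before the start, had a fold of 8.46 and 11.4 in pair A, 34.0 and 30.2 in the knockout, and 40.8 and 48.4 in pair B. Neither was called at room temperature or at 4 h. Depp1 region 3, with its summit 85 bp before the start and near the 2-unit element printed above, was called only in the long lists, with folds of 8.30 and 10.1 in the knockout and 7.79 and 8.45 in pair B. Depp1 lies within the span of Rassf4, so these regions are in both gene windows.

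Ddit4, the mTORC1 inhibitor, had its strongest region beyond the gene. Ddit4 region 1 (chr10:59942397-59944048) had its summit 8609 bp past the start, which is 6514 bp beyond the far end of the gene. Its fold was 7.15 and 8.40 at room temperature, 16.7 and 10.3 in pair A, 46.7 and 36.9 in the TXNIP knockout, and 49.7 and 49.2 in pair B. Neither 4 h library called it. Ddit4 region 2, 2312 bp past the start, was called in replicate 1 of pair A at 4.35 and in all 4 long lists, at 15.6 and 14.4 in the knockout and 15.5 and 23.8 in pair B. The promoter region, Ddit4 region 3, had its summit 345 bp before the start and folds of 8.92 and 8.69 in the knockout, against 9.16 and 9.26 in pair B. The promoter sequence printed above held no heat shock element, and Ddit4 region 1, the strongest, lies outside that window.

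**Figure D1:**
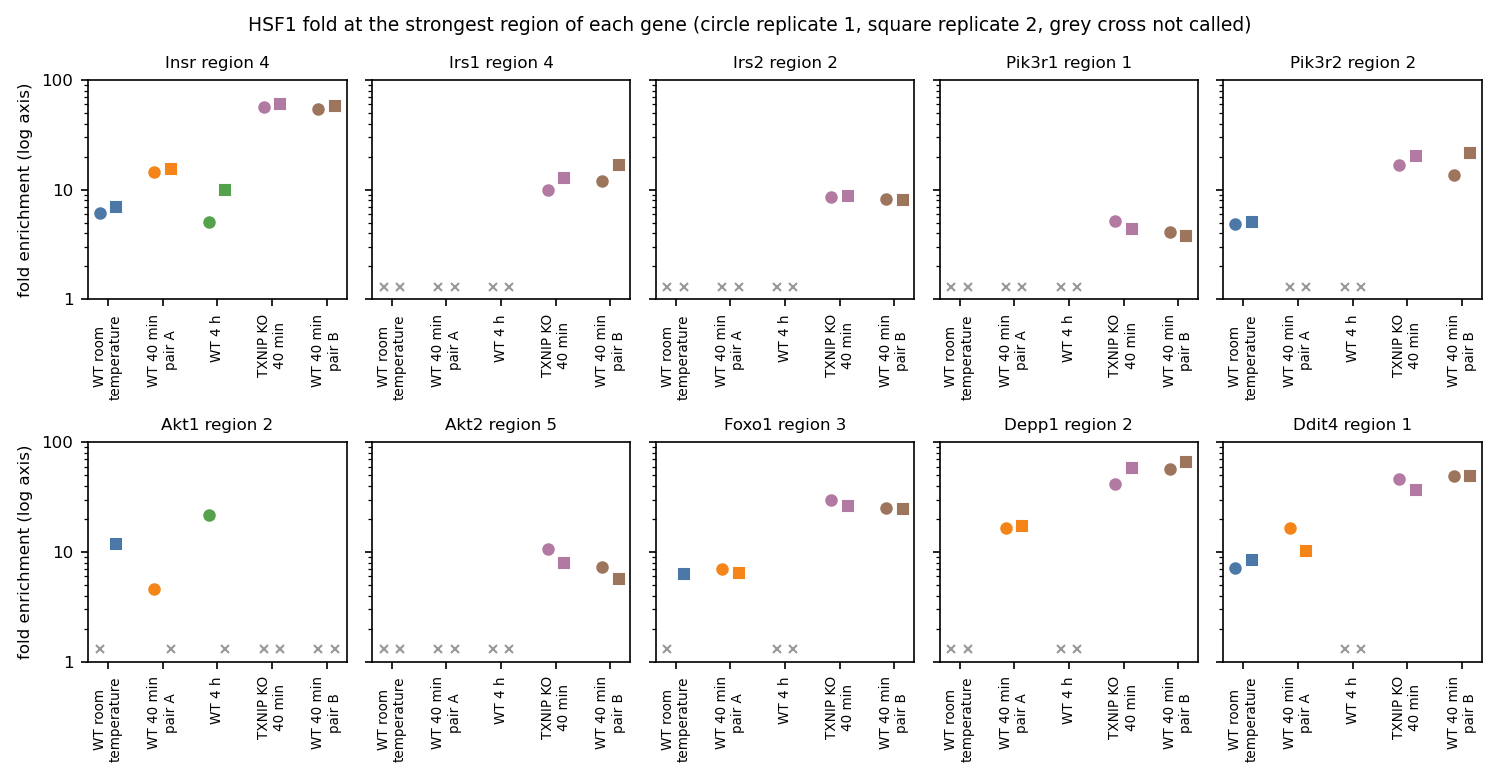
The authors' fold enrichment (log axis) of the leading region of the member genes in each library, with a circle for replicate 1, a square for replicate 2 and a grey cross where the library did not call the region. Insr region 4 has a point in all 10 libraries, between 5.07 and 60.2, and Depp1 region 2 has none at room temperature or at 4 h.

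**Figure D2:**
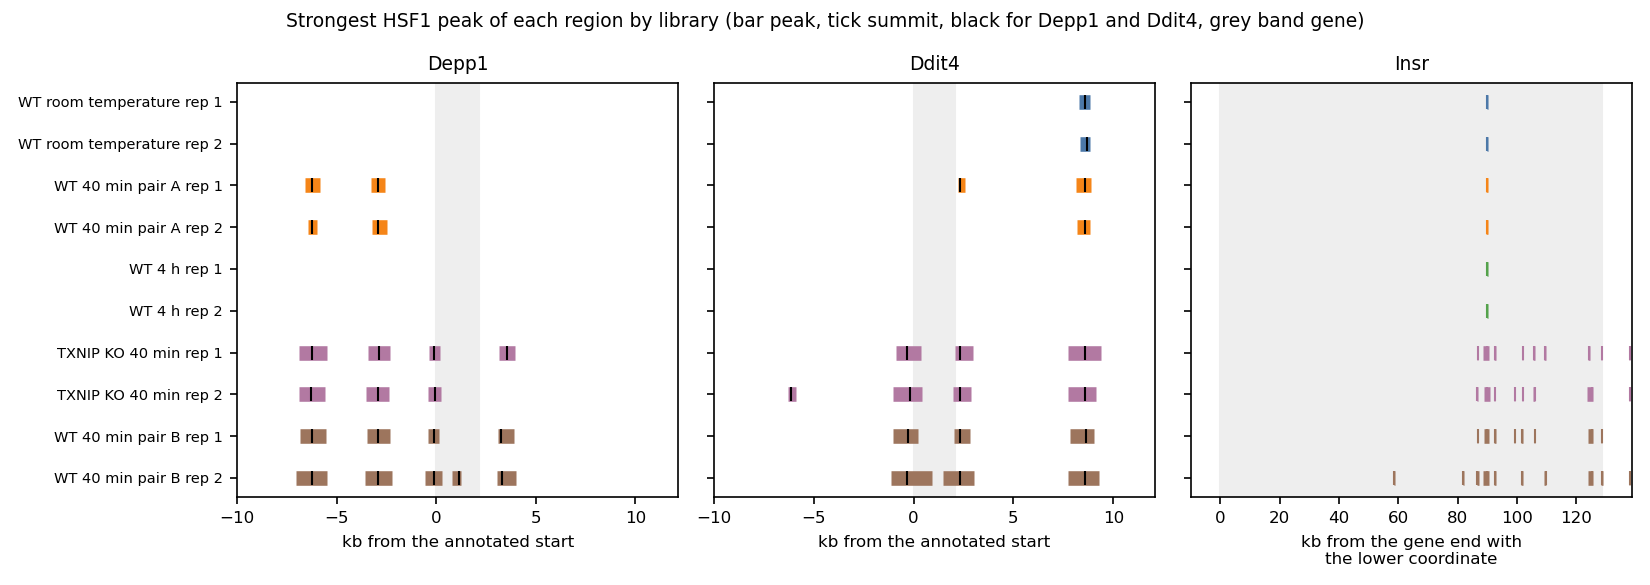
Strongest peak of each region around Depp1, Ddit4 and Insr in the 10 libraries (one row each), as bars with a tick at the summit, against distance in kb from the annotated start, or from the lower-coordinate end for Insr, whose start is not in the table used. The Depp1 regions 6256 and 2920 bp before the start appear at 40 min, and the Ddit4 region 8609 bp past the start appears in all rows but the 4 h ones.

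The number of member genes with a region called in both libraries of a group was highest in the long lists and lowest at 4 h. At room temperature 3 genes qualified (Insr, Pik3r2 and Ddit4), beside 3.53% of all protein-coding genes. In pair A there were 4 (Insr, Foxo1, Depp1 and Ddit4), beside 5.96%. At 4 h only Insr qualified, beside 0.535%. In the TXNIP knockout all 10 genes qualified, beside 23.7%, and in pair B all but Akt1 did, beside 29.4%. Read against these backgrounds the members' shares are high, but this is how they were chosen.

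With each list limited to its strongest 919 peaks, the members were 2 of 10 at room temperature (beside 3.18%), 3 in pair A (3.4%: Insr, Depp1 and Ddit4), 4 in the knockout (3.87%: the same 3 and Foxo1) and 3 in pair B (3.76%: Insr, Depp1 and Ddit4). The 4 h lists are too short for this. With the strongest 123 peaks, Insr was bound at 4 h (0.443%), and 0 members were at room temperature (0.626%), in pair A (0.612%), in the knockout (0.699%) or in pair B (0.658%). With the full lists, room temperature gave 5 genes without its replicate 1, and 4 h gave 2 without its replicate 2. Longer genes offer more room for a peak, and the 10 genes have a median span of 36762 bp, against 17169 bp over all protein-coding genes.

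**Figure D3:**
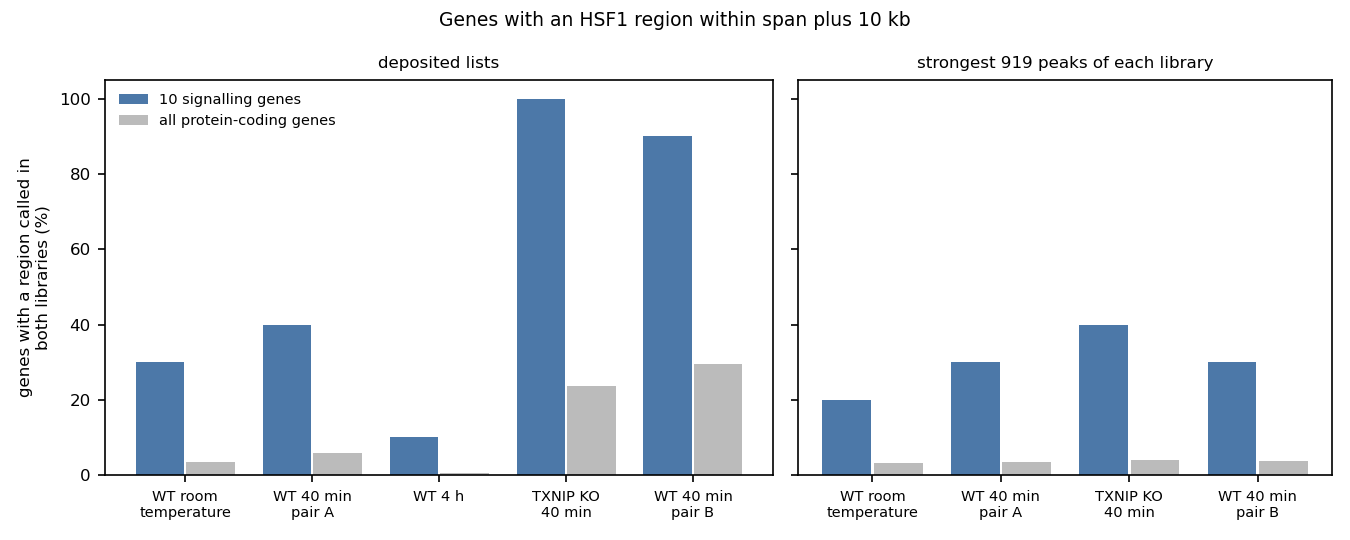
Percent of the 10 signalling genes (blue) and of all protein-coding genes (grey) with a region called in both libraries of a group, within the gene span plus 10 kb, for the deposited lists and for the strongest 919 peaks of each library. The 10 genes reach 10 of 10 in the knockout, against 9 of 10 in pair B, where only replicate 2 called Akt1 region 1. With a 5 kb window both groups have 9 of 10.

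After 40 min of cold, Depp1 regions 1 and 2 were called in both libraries of pair A and in neither room temperature library. Pik3r2 region 2 was called in both libraries at room temperature and in neither of pair A. That made 2 of 8 member regions gained, beside 15.8% of all regions, and 1 of 8 lost, beside 0.194%. The loss holds for pair A only, since both libraries of pair B, also WT at 40 min, called Pik3r2 region 2 (13.5 and 21.8). Insr region 4 and Ddit4 region 1 were called in all 4 libraries of pair A and room temperature. With both lists cut to their strongest 919 peaks, 2 of 7 were gained (7.11%) and 0 lost (4.31%), and the Pik3r2 region was no longer counted as lost. Without a replicate the gained count was 2 to 3, and the lost count stayed at 1.

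Among the 750 regions called in all 4 libraries, Insr region 4 ranked 387 and 272 by fold in pair A, against 541 and 529 at room temperature, so it stood higher in both 40 min libraries. That held for 25.5% of those regions, and 26.3% stood lower in both. Ddit4 region 1 ranked 296 and 492 at 40 min, against 435 and 406 at room temperature, and the groups overlapped.

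After 4 h, member regions were lost and none was gained in the deposited lists. Against room temperature, Ddit4 region 1 and Pik3r2 region 2 were lost, 2 of 5, beside 36.6% of all regions, and the gained share over all regions was 0.21%. Against pair A, Ddit4 region 1, Foxo1 region 3 and Depp1 regions 1 and 2 were lost, 4 of 7, beside 46.4%, and the gained share was 0.0404%. Both comparisons share the 4 h libraries, and each shares its other libraries with the comparison of 40 min and room temperature. The 4 h lists are the shortest, and with lists limited to the strongest 123 peaks no member region was lost and 1, Insr region 4, was gained in each (beside 9.82% and 9.5%, with 16.5% and 18.1% lost). Insr region 4 was called in both 4 h libraries and ranked 86 and 74 among the 97 regions shared with room temperature, against 84 and 89 at room temperature, so the groups overlapped (28.9% of those regions stood higher and 38.1% lower in both 4 h libraries). Among the 104 shared with pair A it ranked 91 and 77 at 4 h, against 89 and 82 at 40 min, which overlapped too (33.7% higher and 32.7% lower).

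In the TXNIP knockout at 40 min, few member regions were gained or lost against pair B. Foxo1 region 4 (folds of 4.36 and 3.89) and Akt2 region 1 (3.11 and 4.15, with its summit 31 bp past the start) were called in both knockout libraries and in neither WT library. Foxo1 region 7 was called only in both WT libraries, at 3.58 and 4.29. This made 2 of 48 regions gained, beside 1.1% of all regions, and 1 lost, beside 7.36%. At equal list length, 3 of 39 were gained (3.43%) and 0 lost (3.98%). The third gained was Akt1 region 1, which replicate 2 of pair B called in its full list.

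Single libraries move these counts. The gained count was 4 without knockout replicate 1, 4 without knockout replicate 2 and 5 without replicate 2 of pair B. The lost count was 4 without knockout replicate 1, 11 without replicate 1 of pair B and 4 without its replicate 2. Which WT pair was prepared with the knockout is not stated, and against pair A, whose lists are shorter, 19 of 36 member regions were gained, beside 43.6% of all regions, and 0 lost, beside 0.00775%. A difference in preparation and one in genotype therefore cannot be told apart.

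All 4 libraries of the knockout and pair B called 19 of the 49 member regions (38.8%), beside 39.2% of all regions. Knockout folds were both above those of pair B at 4 of 19 (10.6% of all shared regions) and both below at 8 (39.1%). By rank among the 7131 shared regions, 8 stood higher in both knockout libraries (24%), 3 stood lower (21.6%) and 8 overlapped. Fold and rank can differ, as at Ddit4 region 3, where both knockout libraries were lower by fold and higher by rank. Insr region 4 ranked 285 and 225 in the knockout, against 396 and 391 in pair B. Foxo1 region 3 ranked 779 and 858 in the knockout, against 1087 and 1204 in pair B, and Akt2 region 5 ranked 2598 and 3317 in the knockout, against 4100 and 5443 in pair B. These stood higher in the knockout. Depp1 region 1 ranked 644 and 711 in the knockout, against 609 and 521 in pair B, and Insr region 10 ranked 5489 and 5252 in the knockout, against 3576 and 3989 in pair B. These stood lower.

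The 6 libraries at 40 min were taken as a set after seeing the data. All 6 called 5 of the 49 member regions, beside 1460 of all 18176 regions. Depp1 region 2 ranked 305 and 238 in pair A, 486 and 255 in the knockout and 365 and 324 in pair B. Ddit4 region 1 ranked 306 and 556 in pair A, 395 and 538 in the knockout and 452 and 505 in pair B. Both pair A libraries placed Depp1 region 2 above both pair B libraries, while the knockout overlapped each pair there. How many of the 1460 regions did the same was not counted. For Ddit4 region 1 the 3 groups overlapped. Foxo1 region 3 ranked 1049 and 1032 in pair A, 763 and 831 in the knockout and 1026 and 1108 in pair B. Both knockout libraries placed it above both pairs, and the share of regions that did so was not counted either. Insr region 4 ranked 406 and 284 in pair A, 285 and 225 in the knockout and 394 and 391 in pair B. Depp1 region 1 ranked 846 and 464, 641 and 701, and 606 and 521 in the same order.

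**Figure D4:**
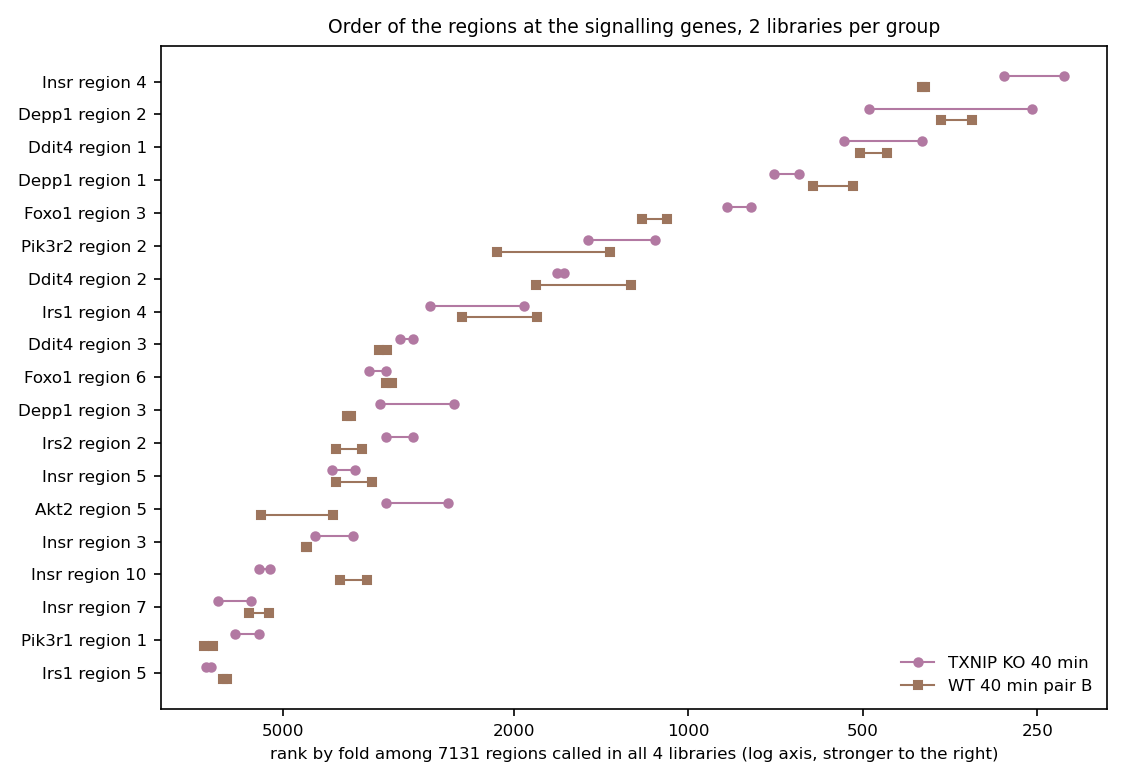
Rank by fold (log axis, strongest at the right) among the 7131 regions called in all 4 libraries, for the 19 member regions, in the 2 TXNIP knockout libraries and the 2 libraries of the WT 40 min pair B. Insr region 4 lies at 285 and 225 in the knockout, against 396 and 391 in pair B.

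The regions also differed in where they lay. Of the 49 regions, 34 lay inside a member gene, a count that depends on the windows and has no share over all regions beside it. A summit within 1000 bp of a gene end was found for 13 (26.5%), beside 26.2% of all regions. Regions called in a single library numbered 17 (34.7%), beside 30.3% of all regions, with folds of 2.61 to 5.15 and a median of 3.59. They came from replicate 2 of pair B in 10 cases. Regions with a peak in any of the 6 short lists numbered 8 (16.3%), beside 13.9%. At the edge of the 10 kb windows, the outermost region taken began 8945 bp from Insr, with folds of 6.43 and 4.35 in the knockout, and was also called in replicate 2 of pair B. The nearest region left out lay 14374 bp from Pik3r2, with folds of 5.81 and 6.91 in the knockout, and was called in both libraries of pair B.

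Regions whose rank pattern over the 8 libraries outside 4 h was nearest to a member's were found by the root mean square difference in rank among 749 regions. For Ddit4 region 1 the nearest protein-coding genes to these regions were Egr1 (difference of 47.4, summit 5740 bp from the gene end), Plin2 (57.1, at 383 bp) and Skor1 (63.0, at 13735 bp), where the median difference over all was 193. For Insr region 4 they were Naa50 (64.1, at 725 bp), Fbxo42 (64.5, at 436 bp) and Sash1 (72.3, at 146978 bp), with a median of 222. The named regions were picked as the smallest differences, so lying below the median was fixed by that choice.

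Of 78 other genes of the pathway, also listed with results known, 4 (5.13%) had a region called in both libraries at room temperature, 9 (11.5%) in pair A, 0 at 4 h, 39 (50%) in the knockout and 46 (59.0%) in pair B. The same shares over all genes are those given above, 3.53%, 5.96%, 0.535%, 23.7% and 29.4%. Their median span was 44026 bp. Castor1, an arginine sensor that inhibits mTORC1, had a region with a fold of 15.3 and 19.1 at room temperature, of 38.4 and 24.5 in pair A, of 86.9 and 79.6 in the knockout and 113 and 144 in pair B. Sesn1, a leucine sensor, had 8.82 and 7.61 at room temperature, 13 and 10.6 in pair A, 36.5 and 42.3 in the knockout, and 39.2 and 52.7 in pair B. Both had a region called in both libraries of every group but 4 h.

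Tbc1d1, a Rab GTPase-activating protein that AKT phosphorylates, had 5.25 and 6.34 at room temperature, 19.1 and 11.4 in pair A, 44.3 and 25.4 in the knockout, and 45.1 and 43.2 in pair B, with a summit 9114 bp outside the gene. The peak in the window of Gsk3a, a kinase that AKT inhibits, lay 26 bp from the end of Zfp526. Other genes were bound in pair A, but in both libraries of neither room temperature nor 4 h. These were Rptor, the mTORC1 scaffold (7.97 and 6.68), Rragd, a Rag GTPase (8.91 and 8.63), and Tfeb, a lysosomal transcription factor (5.32 and 5.42). So were Fnip2, a folliculin partner (9.42 and 8.35), and Slc2a4, the insulin-responsive glucose transporter (6.77 and 5.84). The Fnip2 summit in pair A lay inside the gene, 9108 bp from its nearer end and 950 bp from the end of Gm17359.

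In the promoters, the 250 bases before the start were searched on both strands for the 2-unit elements GAANNTTC and TTCNNGAA, and for 3-unit elements, which add to either one a further alternating unit after any 2 bases and so contain both. Of 21263 RefSeq promoters, 0.386% held a 3-unit element, 5.54% held one with at most 1 mismatch and 11.8% held a 2-unit element. Of the 10 genes, 9 have promoters in the table, and 7 of them have one overlapped by a region (Irs1, Pik3r1, Pik3r2, Akt2, Foxo1, Depp1 and Ddit4). Of these 7 promoters, 0 held a 3-unit element, 1 held one with 1 mismatch (Pik3r2) and 1 held a 2-unit element (Depp1). The 7 count a region called in any library, and no share over all promoters stands beside them. For Foxo1 the overlap rests on region 1, called in knockout replicate 1 alone (fold of 3.94). For Akt2 it rests on region 1, called only in the knockout (3.11 and 4.15). A match is a description of letters and not a site. The leading regions of Irs1, Irs2, Akt1, Akt2, Foxo1, Depp1 and Ddit4 lie outside these windows, and Insr has no promoter window.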

How the data were processed

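HSF1 ChIP-seq of mouse BAT was analysed from the peak lists the authors deposited, one for each of 10 ChIP libraries. The 5 inputs have no list that was used here, and 1 of them, whose title and treatment label disagree, was placed in no group. The submitters' processing notes name MACS2 2.2.7.1, BWA 0.7.17, deepTools 3.4.3, SAMtools and Trim Galore 0.6.0, and the build GRCm38.p6 (mm10). Which input served which library, and how duplicates were treated, is not given in the sources used here. Peaks were called on single libraries, as the deposited lists show. Each deposited list gives a fold enrichment (a linear ratio), a summit, the −log10 of p and of q, and an integer score that was not used. The smallest deposited −log10 q was 1.30. The lists hold no counts, so depth per library is unknown.

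Regions were made by merging peaks that shared 1 bp or more (Python 3.11.15, pandas 2.3.3, numpy 2.4.6, figures with matplotlib 3.10.9). A gene was bound in a group when a region within its span plus 10 kb was called in both libraries. Gained and lost regions were those called by both libraries of 1 group and by neither of the other. Regions were ranked by fold among those called in every library compared. The merging and counting were tested on simulated lists. No test was run. Alternatives were an overlap of 0.5 of the shorter peak, gene windows of 5 kb or none, −log10 q of at least 3, lists of equal length, the other WT pair as control and leaving out each library. The members and gene lists were chosen with earlier results of these data known. All 10 members are named, with pathway genes bound in a short list or strongest in pair B. No genome was used here, so the planned motif search at summits was replaced by RefSeq promoters. The values at the edge of the 10 kb windows were added after seeing the data.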

Additional observations from a re-analysis of the deposited data

How the results depend on the processing

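The counts rest on called peaks without depth, so a region that is not called may lie below the threshold. Leaving out single libraries gave ranges of 3 to 5 genes bound at room temperature, 4 to 5 in pair A, 1 to 2 at 4 h, 10 to 10 in the knockout and 9 to 10 in pair B. For regions, the ranges were 2 to 3 gained and 1 to 1 lost (pair A against room temperature), 0 to 0 gained and 2 to 3 lost (4 h against room temperature), 0 to 0 gained and 4 to 5 lost (4 h against 40 min), and 3 to 5 gained and 1 to 11 lost (knockout against pair B). With the gene span alone, genes bound were 1 at room temperature and 2 in pair A. With the strongest 123 peaks they were 0 at room temperature, 0 in pair A, 0 in the knockout and 0 in pair B, and with the strongest 919 they were 4 in the knockout and 3 in pair B. For 40 min against room temperature, gained regions were 1 with a 5 kb window and 0 with the span alone, and lost regions 0 with the span alone and 0 at equal length. For 4 h against room temperature, 1 was gained at equal length, and lost regions were 1 at 5 kb, 0 with the span alone and 0 at equal length. For 4 h against 40 min, 1 was gained at equal length, and lost regions were 2 at 5 kb, 1 with the span alone and 0 at equal length. For the knockout, −log10 q of at least 3 gave 1 gained and 2 lost, equal length 0 lost, and pair A as control 19 gained and 0 lost. The strongest-peak settings for genes bound were chosen after seeing the data. Of the counts of genes and regions under all alternatives, 80 stayed within 1.5 times of those reported and 33 did not. A count of 0 that stayed at 0, as for most regions gained at 4 h, was taken as within that range, so the tally says little of those. The causes were not tested beyond the shorter lists and windows these settings set. The motif search at summits, with its 250 bp alternative, was not run. No paired analysis was possible because no label ties a replicate number to a shared animal, batch or day, and the counts of called peaks come from no test.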
